A study of Oryza sativa with 12 samples.

Results

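Cyclins and the cyclin-dependent kinases (CDKs) they switch on were followed across the flag leaf and the young panicle of rice. Genes were taken as members where a name in the RefSeq gene table (assembly ASM3414082v1) begins with CYCA, CYCB, CYCD, CYCF, CYCH, CYCL, CYCP, CYCT, CYCU or with CDKA to CDKG. The table holds 42 such genes, and 35 of them, 24 cyclins and 11 CDKs, have a probe set assigned to them alone, of 17905 genes that do. No gene of the CYCU group was found, and CDKB1-1, CDKC-2, CDKF-2, CYCA3-1, CYCB1-5, CYCD2-1 and CYCT1;1 have no probe set assigned to them here. Of the 35 genes, 34 passed the filter on dim probe sets. The exception was the F-type cyclin CYCF2-2, which lay under background in all 12 arrays. Names are spelled as in that table. A gene with several probe sets (8 genes) is represented by its brightest one unless stated otherwise. RefSeq lists these genes under LOC numbers, which are given for the genes described in full. LOC4326914, called CYCB1-3 here, also carries the name CYCB1-1 in that table, while LOC4327547 carries only CYCB1-1. LOC4352229, called CYCT1;4, is also listed as CYCT1-1.

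Most CDKs act only while bound to a cyclin, and the stage of the cell cycle is set largely by which cyclin is present. In plants, D-type cyclins with CDKA act at the entry into the cycle, where they inactivate the retinoblastoma-related protein. A-type cyclins act from DNA replication onwards, and B-type cyclins with CDKA and the plant-specific CDKB act at the entry into mitosis. Other members do not drive the cycle directly: CDKD with cyclin H activates other CDKs, CDKC with cyclin T phosphorylates RNA polymerase II, CDKE belongs to the Mediator complex, and CDKG with cyclin L is linked to splicing in Arabidopsis.

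The study compared the field-grown rice line KMR3 with IL50-7, which the series title describes as a high yielding introgression line. Total RNA came from flag leaves and from young panicles that had fully emerged. Each of the 4 groups (KMR3 leaf, KMR3 panicle, IL50-7 leaf and IL50-7 panicle) holds 3 arrays that the labels call biological replicates. The labels do not say how many plants were pooled for an array, nor which donor segments IL50-7 carries.

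Levels are log2 intensities after quantile normalization, and background is log2 4.01, the 95th percentile of 23 control probe sets with no target added. Levels of different probe sets cannot be set against each other. Replicate arrays correlated at r = 0.896 to 0.961, and precision is limited by the 3 arrays in each group. The organ labels were checked against marker genes. The 12 floral organ identity genes summed to 21896 to 25627 in panicles and 579 to 850 in leaves (linear normalized intensity). Of them, 11 were called higher in the panicle in KMR3 and 12 in IL50-7. MADS6, MADS7, MADS8, MADS13 and MADS15 passed the filter on dim probe sets only through their panicle levels, so their calls are not independent of it. Leaf photosynthesis genes (3 matched) summed to 36086 to 37280 in leaves and 19081 to 29529 in panicles, and 2 of them were called lower there in KMR3 and 1 in IL50-7. Of all probe sets, 22.5% in KMR3 and 22.4% in IL50-7 were called higher in the panicle, and 25% and 23.2% lower. The 1 photosynthesis call in IL50-7 is thus close to the general share. Genes of the tapetum and anther (8) ran from 9109 in IL50-7 panicle 3 to 32270 in KMR3 panicle 3, and the sum in leaves was at most 399. KMR3 panicle 3 and IL50-7 panicle 1 had the lowest photosynthesis sums of the panicles. IL50-7 leaf 1 stood apart from the other leaves: it had the highest leaf level for 11 of the 34 members, where each other leaf array had it for 3 to 7, and it had the lowest leaf level for 7, where the others had it for 3 to 7.

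**Figure D1:**
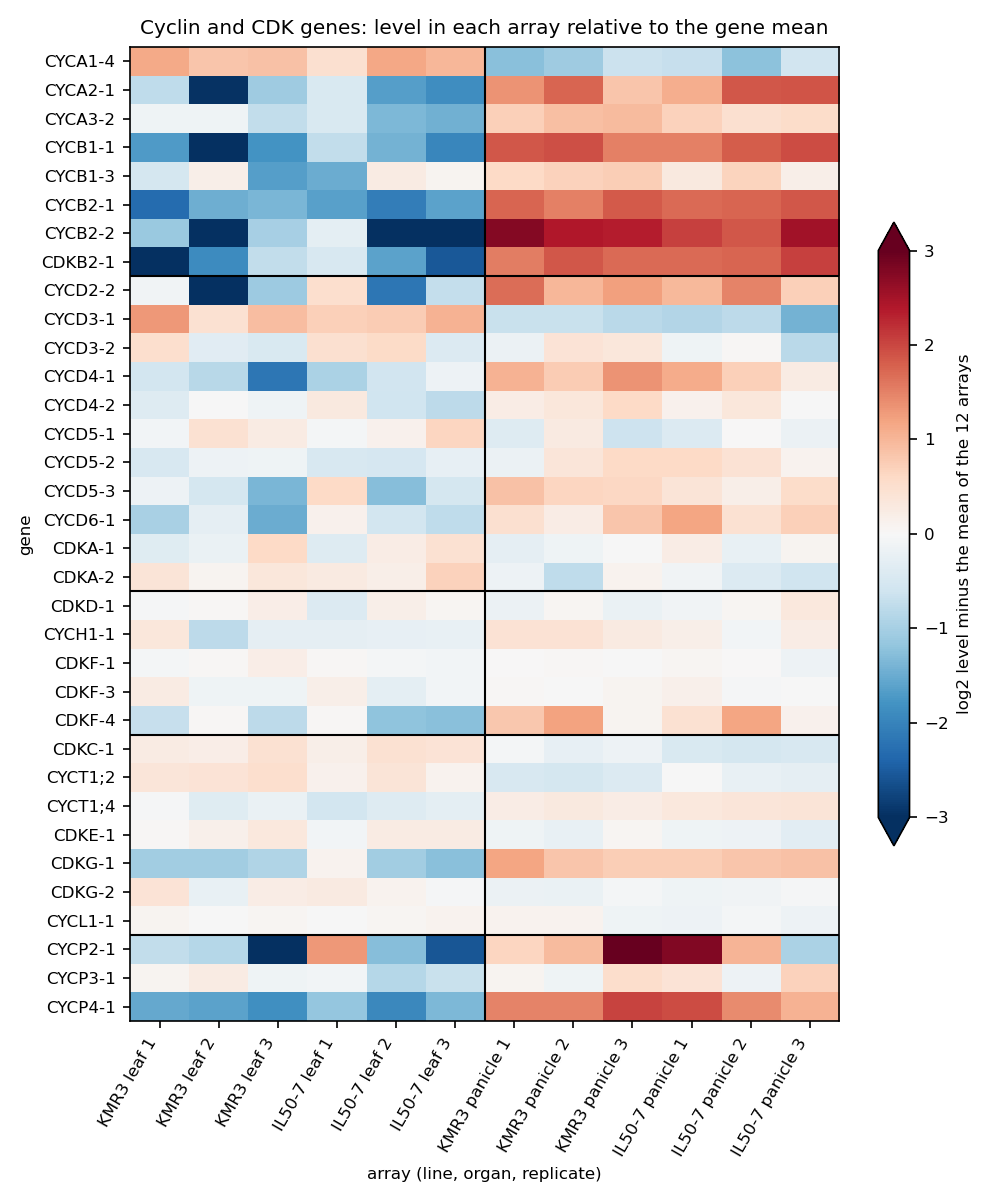
Log2 level of each tested gene in each of the 12 arrays, minus the gene's mean over the arrays (colour, cut at 3 either way); rows are grouped by role and columns by organ. Most A- and B-type cyclins, CDKB2-1 and CYCP4-1 are above their mean in all 6 panicle arrays and below it in the leaves, while CYCA1-4 and CYCD3-1 run the other way.

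The comparison of organs asked which members differ between the flag leaf and the young panicle, in each line separately. In KMR3 15 of the 34 members were higher in the panicle and 4 were lower (limma, Benjamini-Hochberg adjusted p under 0.05). Over all 34316 probe sets tested, 22.5% were higher, 25% lower and 47.5% either in that comparison. In IL50-7 14 members were higher and 4 lower, where 22.4% of all probe sets were higher, 23.2% lower and 45.6% either. The higher counts, here and below, include CYCB2-2 in both lines and CYCD2-2 in KMR3. These 2 genes passed the filter on dim probe sets only through their panicle levels. The median log2 difference of the members was 0.54 in KMR3 and 0.77 in IL50-7, and that of all probe sets was -0.11 and -0.06. With levels under background raised to background, the members' medians were 0.54 and 0.62. Both lines had 12 members called higher (18.5% of all probe sets) and 3 called lower (19.8%), no member was called in opposite directions, and 31 members had the same sign. Panicle minus leaf is a separate set of 6 arrays in each line, so the 2 differences share no arrays. The calls are still linked, since the normalization, the filter on dim probe sets and the 1 estimate of the spread used all 12 arrays.

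Counts by role differed, with no test of one role against another. Among the 8 members of the A-type, B-type and CDKB groups, 6 were higher and 1 lower in each line, where 22.5% and 22.4% of all probe sets were higher. The other 26 tested members had 9 higher and 3 lower in KMR3 and 8 higher and 3 lower in IL50-7. For 5 of the 8 (CDKB2-1, CYCA2-1, CYCB1-3, CYCB2-1 and CYCB2-2) the mean leaf level was under background in both lines, so their differences from the leaf are not measured exactly. With every level under background raised to background, the median log2 difference of the 8 was 2.47 in KMR3 and 2.41 in IL50-7, and that of the other 26 was 0.18 and 0.25. By kind, 12 of 23 cyclins were higher and 3 lower in KMR3, and 11 higher and 2 lower in IL50-7. Of the 11 CDKs, 3 were higher in each line, CDKB2-1, CDKF-4 and CDKG-1, while 1 was lower in KMR3 and 2 in IL50-7. On the deposited scale the median of all probe sets in KMR3 moved from -0.11 to 0.31, and the members' split there moved from 15 higher and 4 lower to 19 and 2. With array medians set equal it was 18 and 2. Of all probe sets, 38.1% and 41.5% were called in KMR3 under these 2 scalings, against 47.5%. In IL50-7, where the median of all probe sets moved from -0.06 to 0.15 on the deposited scale, the split was 13 and 2 under both. There 33.2% of all probe sets were called on the deposited scale and 37.2% with array medians set equal, against 45.6%. Without IL50-7 leaf 1 the IL50-7 count was 16 higher and 5 lower, with 46.9% of all probe sets called either way.

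**Figure D2:**
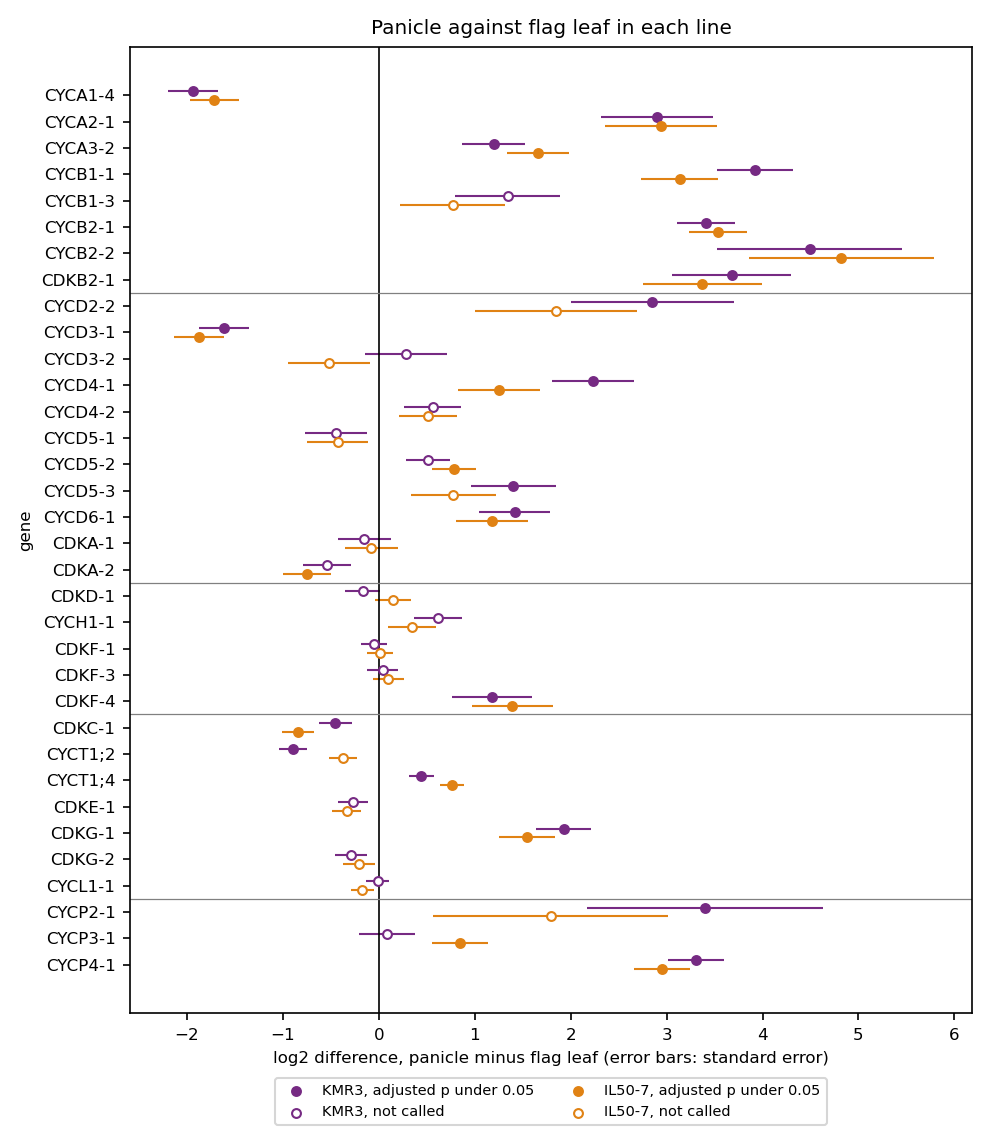
Log2 difference, panicle minus flag leaf, of each tested member in KMR3 (purple) and IL50-7 (orange), with standard errors as bars; filled points have a limma adjusted p under 0.05 and horizontal lines separate the roles. The points furthest to the right are the B-type cyclins CYCB1-1, CYCB2-1 and CYCB2-2, CDKB2-1, CYCA2-1, CYCP4-1 and, in KMR3, CYCP2-1; CYCA1-4 and CYCD3-1 lie furthest to the left, and where the leaf mean is under background (CDKB2-1, CYCA2-1, CYCB1-3, CYCB2-1, CYCB2-2 and CYCD2-2 in both lines), the point is a fitted value and not a measured size.

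B-type cyclins carry CDKs into mitosis, and 3 of the 4 tested were higher in the panicle of both lines. CYCB1-1 (LOC4327547, chromosome 1) had log2 levels of 4.16, 2.86 and 4.08 in KMR3 leaves and 7.72, 7.79 and 7.37 in KMR3 panicles. In IL50-7 it had 5.12, 4.44 and 3.89 in leaves and 7.36, 7.69 and 7.82 in panicles. All panicle arrays were thus well above all leaf arrays, and the leaf levels straddled background. The mean level in KMR3 was log2 3.70 in leaves, under background, and 7.63 in panicles (limma adjusted p = 1.61e-05). In IL50-7 the gene was 8.79-fold higher in the panicle (log2 difference 3.14 ± 0.40, SE, limma adjusted p = 7.78e-05). In these bulk samples, a higher share of dividing cells and more transcript in each cell cannot be told apart.

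CYCB2-1 (LOC4336670, chromosome 4), of the second B-type group, read log2 3.13, 3.97 and 4.07 in KMR3 leaves against 7.19, 6.94 and 7.27 in KMR3 panicles. IL50-7 leaves read 3.81, 3.37 and 3.83, and IL50-7 panicles 7.13, 7.18 and 7.30. Only 1 of the 6 leaf arrays was above background, and the 6 panicle arrays lay within a range of 0.37 log2 units. The mean level in KMR3 was log2 3.72 in leaves and 7.13 in panicles (limma adjusted p = 6.16e-06). In IL50-7, where every leaf array was under background, the panicle was at least 9.16-fold higher (limma adjusted p = 4.37e-06).

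CYCB2-2 (LOC4342121, chromosome 6), its close relative, was under background in all 6 leaves. Its leaf log2 levels were 3.01, 0.26 and 3.14 in KMR3 and 3.84, 0.26 and 0.26 in IL50-7, where 0.26 is the floor set for dim values. Its panicle levels were 6.89, 6.51 and 6.48 in KMR3 and 6.17, 6.0 and 6.65 in IL50-7. The panicle was at least 6.14-fold higher in KMR3 and at least 4.80-fold higher in IL50-7 (limma adjusted p = 0.00272 and 0.0018). Its leaf means (log2 2.13 and 1.45) were under the filter cut of log2 3.06, so it was tested only through its panicle levels. The other probe set of this gene was too dim to be tested, with mean log2 levels of 4.48 and 4.39 in the panicles of KMR3 and IL50-7.

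CYCB1-3 (LOC4326914, chromosome 1) was the B-type member that passed in neither line. It read log2 3.82, 4.54 and 2.71 in KMR3 leaves and 4.97, 5.04 and 5.09 in KMR3 panicles. IL50-7 gave 2.86, 4.61 and 4.44 in leaves and 4.66, 5.03 and 4.55 in panicles. The KMR3 groups did not overlap but the IL50-7 groups did, and all panicle levels were close to background. The mean level went from log2 3.69 in leaves to 5.03 in panicles in KMR3 (limma adjusted p = 0.0631) and from 3.97 to 4.74 in IL50-7 (0.278), with both leaf means under background. In KMR3 it passed without KMR3 leaf 2 or IL50-7 leaf 1 (limma adjusted p = 0.0281 and 0.0276), on the deposited scale (0.0411), with array medians set equal (0.0391) and with array weights (0.0168).

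CDKB2-1 (LOC4346016, chromosome 8), of the plant-specific kinases of the entry into mitosis, followed the B-type cyclins. Its leaf log2 levels were scattered, at 1.91, 3.36 and 4.51 in KMR3 and 4.77, 3.63 and 2.69 in IL50-7. Its panicle levels were tight, at 6.77, 7.11 and 6.93 in KMR3 and 6.93, 6.99 and 7.28 in IL50-7. The scatter in the leaf was around background, where 4 of the 6 arrays fell below it. The mean level was log2 3.26 in leaves and 6.94 in panicles of KMR3 and 3.70 and 7.07 in IL50-7 (limma adjusted p = 0.000587 and 0.00106), and no size of the difference is given because both leaf means were under background.

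**Figure D3:**
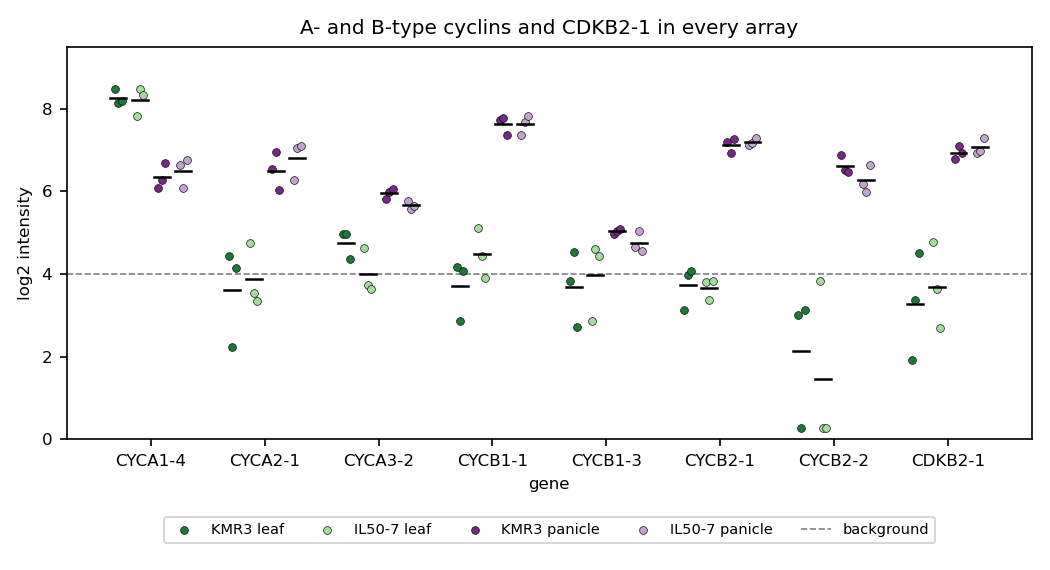
Log2 levels of the A- and B-type cyclins and CDKB2-1 in every array, with points for arrays, bars for group means and a dashed line at background (log2 4.01). Panicle points of CYCA2-1, CYCB1-1, CYCB2-1, CYCB2-2 and CDKB2-1 stand at 6.0 to 7.82, whereas their leaf points lie around or under background; CYCA1-4 is higher in leaves.

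The A-type cyclins did not move as one group. CYCA2-1 (LOC4352280, chromosome 12) read log2 4.44, 2.24 and 4.13 in KMR3 leaves and 6.54, 6.95 and 6.04 in KMR3 panicles. The IL50-7 levels were 4.74, 3.54 and 3.34 in leaves and 6.29, 7.06 and 7.10 in panicles. Panicles were above leaves without overlap in both lines, with mean levels of log2 3.61 in leaves, under background, and 6.51 in panicles of KMR3 and of 3.87 and 6.82 in IL50-7 (limma adjusted p = 0.00178 and 0.00167).

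CYCA3-2 (LOC4352642, chromosome 12) rose by less. Its log2 levels were 4.96, 4.96 and 4.35 in KMR3 leaves and 5.82, 6.0 and 6.06 in KMR3 panicles. They were 4.63, 3.74 and 3.65 in IL50-7 leaves and 5.78, 5.58 and 5.64 in IL50-7 panicles. Leaf and panicle arrays did not overlap in either line. The panicle was 2.30-fold higher in KMR3 (log2 difference 1.2 ± 0.33, limma adjusted p = 0.0106), and it also passed in IL50-7 (0.00163), where the mean leaf level was just under background.

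CYCA1-4 (LOC4338177, chromosome 5) ran in the opposite direction and was well above background everywhere. It stood at log2 8.47, 8.15 and 8.20 in KMR3 leaves and fell to 6.07, 6.27 and 6.68 in KMR3 panicles. In IL50-7 the leaf arrays read 7.82, 8.49 and 8.33 and the panicle arrays 6.65, 6.09 and 6.76. Every leaf array was above every panicle array. The level was 3.83-fold lower in the panicle of KMR3 and 3.28-fold lower in that of IL50-7 (log2 difference -1.94 ± 0.26 and -1.71 ± 0.26, limma adjusted p = 0.00011 and 0.000258).

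Other measures moved with the organ too. The ratio of the 3' to the 5' probe set of a rice GAPDH control ran from 2.54 to 6.32 in leaves and from 7.68 to 23.3 in panicles. In a second GAPDH control the ratios overlapped, at 1.52 to 12.4 in leaves and 0.930 to 20.03 in panicles. Of 2 actin controls, both separated the organs in KMR3 (5.85 to 13.6 in leaves against 21.3 to 29.4 in panicles, and 5.17 to 9.40 against 9.496 to 13.4). In IL50-7 both overlapped (7.27 to 8.44 against 7.99 to 23.6, and 6.39 to 7.66 against 4.95 to 12.7). Shoot meristem genes (4) summed to 24.7 to 59.0 in leaves and 3121 to 4396 in panicles. All 4 were called higher in the panicle of both lines. Meiosis genes (7 with a probe set) summed to 82.3 to 150 in leaves and 311 to 555 in panicles. In each line 4 of the 6 tested were called higher in the panicle. OSH1 and OSH43 of the meristem genes and DMC1 of the meiosis genes passed the filter on dim probe sets only through their panicle levels. Of all probe sets, 22.5% were called higher in the panicle in KMR3 and 22.4% in IL50-7. The part of RNA quality and of these cell types in the organ differences of the cyclins was not tested.

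D-type cyclins start the cycle in answer to hormones and sugar. Of 9 tested, 4 were higher and 1 lower in KMR3, and 3 were higher and 1 lower in IL50-7, so that 5 and 4 passed where 47.5% and 45.6% of all probe sets did. CYCD3-1 (LOC4340499, chromosome 6) was the one that fell in both. Its leaf log2 levels were 7.93, 7.08 and 7.54 in KMR3 and 7.34, 7.37 and 7.67 in IL50-7, against panicle levels of 5.94, 5.95 and 5.82 in KMR3 and 5.75, 5.83 and 5.19 in IL50-7. The organs did not overlap, and the panicle was 3.06-fold lower in KMR3 and 3.65-fold lower in IL50-7 (log2 difference -1.62 ± 0.26 and -1.87 ± 0.26, limma adjusted p = 0.000428 and 0.000154).

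CYCD4-1 (LOC4347313, chromosome 9) was higher in the panicle of both lines. It read log2 5.02, 4.75 and 3.41 in KMR3 leaves and 6.63, 6.35 and 6.92 in KMR3 panicles. In IL50-7 it read 4.63, 5.0 and 5.43 in leaves and 6.69, 6.30 and 5.84 in panicles. The gap was wider in KMR3, at 4.71-fold, than in IL50-7, at 2.39-fold (limma adjusted p = 0.00129 and 0.0316), but the difference between the lines did not pass (log2 -0.98 ± 0.60, unadjusted p = 0.132, limma). The call in IL50-7 was lost when IL50-7 leaf 1, leaf 2, panicle 1 or panicle 2 was left out (log2 difference 1.05, 1.25, 1.05 and 1.25, limma adjusted p = 0.0908, 0.074, 0.106 and 0.0734).

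CYCD6-1 (LOC4343569, chromosome 7), whose Arabidopsis counterpart drives a formative division in the root, rose in the panicle as well. Its log2 levels were 4.61, 5.30 and 4.10 in KMR3 leaves and 6.05, 5.80 and 6.42 in KMR3 panicles. They were 5.70, 5.04 and 4.82 in IL50-7 leaves and 6.77, 6.03 and 6.30 in IL50-7 panicles. Panicles were above leaves in each line, by 2.67-fold in KMR3 and 2.27-fold in IL50-7 (limma adjusted p = 0.00884 and 0.0231). The IL50-7 call was lost without leaf 2, leaf 3 or panicle 1 of that line (log2 difference 1.11, 1.01 and 0.97, limma adjusted p = 0.0691, 0.083 and 0.0855).

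CYCD2-2, CYCD5-2 and CYCD5-3 passed in a single line, and for none of them did the interaction between line and organ pass (limma adjusted p = 1). CYCD2-2 was under background in all KMR3 leaves and at least 2.05-fold higher in KMR3 panicles (limma adjusted p = 0.0164), and in IL50-7 its mean level was log2 2.96 in leaves, under background, and 4.81 in panicles (0.0981). CYCD5-3 was 2.64-fold higher in the KMR3 panicle (0.0219) and had a log2 difference of 0.78 ± 0.44 in IL50-7 (0.177). CYCD5-2 was 1.72-fold higher in the IL50-7 panicle (0.0156), with a log2 difference of 0.51 ± 0.23 in KMR3 (0.0841). The second probe set of CYCD5-2, near background, had log2 differences of 0.07 and -0.22 and passed in neither line (limma adjusted p = 0.955 and 0.86), and with both averaged the IL50-7 difference was 0.28 (0.686). On the deposited scale CYCD5-2 passed in KMR3 (log2 difference 1.08, limma adjusted p = 0.0437) and not in IL50-7 (1.02, 0.0632). Each of these calls also changed with single arrays. Without IL50-7 leaf 1 the IL50-7 values of CYCD2-2 and CYCD5-3 passed (limma adjusted p = 0.0395 and 0.017), and CYCD2-2 also passed there without KMR3 leaf 2 (0.0358). The KMR3 call of CYCD2-2 was lost without KMR3 leaf 2 or panicle 1 (0.0526 and 0.0538), and that of CYCD5-3 without leaf 3 or panicle 1 (0.0918 and 0.0648). The IL50-7 call of CYCD5-2 was lost without its leaf 2 or panicle 1 (0.0514 and 0.0557), and CYCD5-2 passed in KMR3 without KMR3 panicle 1 (0.023).

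CYCD3-2, CYCD4-2 and CYCD5-1 passed in neither line, with log2 differences between -0.52 and 0.56. CYCD3-2 stayed within 1 log2 unit of background in all 12 arrays, from 3.62 to 5.0. CYCD4-2 passed in IL50-7 without leaf 1 (log2 difference 0.83, limma adjusted p = 0.0208). In KMR3, where its difference was 0.56, it passed on the deposited scale (1.23, 0.0489) and with array medians set equal (1.06, 0.0317).

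CDKA, the kinase partner of D-type cyclins and the one CDK used throughout the plant cell cycle, was not among the members that rose. CDKA-1 read log2 8.28 to 9.25 in leaves and 8.39 to 8.87 in panicles, with log2 differences of -0.15 ± 0.27 in KMR3 and -0.08 ± 0.27 in IL50-7 (limma adjusted p = 0.684 and 0.846). The 95% interval of that difference was -0.75 to 0.45 in KMR3, and in IL50-7 it was -0.68 to 0.53. CDKA-2 read 7.75 to 8.37 in leaves and 6.91 to 7.77 in panicles, and was 1.68-fold lower in the panicle of IL50-7 (log2 difference -0.75 ± 0.25, limma adjusted p = 0.0313) with -0.54 ± 0.25 in KMR3 (0.102). The IL50-7 call was lost without leaf 3, panicle 2 or panicle 3 of that line (0.123, 0.0761 and 0.103) and on the deposited scale (log2 difference -0.48, 0.311), and CDKA-2 passed in KMR3 without panicle 3 (0.0482). Both CDKA genes are represented by probe sets of the _s_at or _x_at type, whose probes can match other transcripts. The signs of CDKA-1 in both lines, and of CDKA-2 in KMR3, turned under at least 1 other scaling or with an array left out.

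CDKD and cyclin H form the kinase that activates other CDKs, and in Arabidopsis a CDKF acts on that kinase. The rice CDKF genes are grouped here by name alone, and whether each has that role was not tested. CDKD-1 differed by less than its spread: its log2 level was 8.95 to 9.55 in leaves and 9.14 to 9.68 in panicles (log2 difference -0.17 ± 0.18 in KMR3 and 0.15 ± 0.18 in IL50-7, limma adjusted p = 0.489 and 0.544). CYCH1-1 had log2 differences of 0.62 ± 0.25 and 0.35 ± 0.25 (0.0621 and 0.291). It passed in KMR3 without KMR3 leaf 1 (log2 difference 0.90, limma adjusted p = 0.00643), on the deposited scale (1.17, 0.0299), with medians of bright probe sets set equal (0.76, 0.0222), with array weights (0.66, 0.0203) and with the stricter filter (0.62, 0.0494). CDKF-1, at 8.73 to 9.08 over all 12 arrays, and CDKF-3, at 9.36 to 9.89, gave some of the narrowest intervals in the family, and their differences lay between -0.05 and 0.10 with intervals inside -0.35 to 0.45. In KMR3 the signs of CDKF-1 and CDKD-1 turned on the deposited scale and with array medians set equal.

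CDKF-4 (LOC4330434) was the exception among the CDKF genes. It read log2 8.28, 9.03 and 8.20 in KMR3 leaves, 9.79, 10.2 and 9.06 in KMR3 panicles, 9.02, 7.77 and 7.72 in IL50-7 leaves and 9.43, 10.16 and 9.11 in IL50-7 panicles. Panicles were above leaves in each line, though KMR3 leaf 2 and KMR3 panicle 3 were nearly level. The panicle was 2.27-fold higher in KMR3 and 2.63-fold higher in IL50-7 (limma adjusted p = 0.0377 and 0.0185). The KMR3 call was lost without leaf 1, leaf 3, panicle 1 or panicle 2 of that line (0.104, 0.117, 0.0923 and 0.136), and the IL50-7 call without leaf 2, leaf 3 or panicle 2 (0.0726, 0.0753 and 0.0764). Its other probe set had log2 differences of 0.55 ± 0.33 and 0.41 ± 0.33 and passed in neither line (0.188 and 0.342).

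CDKC and its T-type cyclins, which promote transcript elongation, changed by small amounts. CDKC-1 (LOC4338674, chromosome 5) read log2 7.44, 7.41 and 7.65 in KMR3 leaves and 7.13, 6.96 and 7.06 in KMR3 panicles, against 7.37, 7.67 and 7.6 in IL50-7 leaves and 6.74, 6.66 and 6.72 in IL50-7 panicles. Leaves were above panicles in each line, 1.37-fold in KMR3 and 1.79-fold in IL50-7 (limma adjusted p = 0.0472 and 0.00193). The KMR3 call was not stable: with an array left out it was lost in 11 of 12 cases (log2 difference -0.50 to -0.37, adjusted p up to 0.15), and it was kept without IL50-7 leaf 1. On the deposited scale the KMR3 difference turned to 0.14 (limma adjusted p = 0.8), and the IL50-7 call was lost there too (log2 difference -0.52, 0.304).

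CYCT1;4 (LOC4352229, chromosome 12) and CYCT1;2 (LOC4329229, chromosome 2), 2 cyclins of the same kind, went opposite ways. CYCT1;4 read log2 10.01, 9.69 and 9.85 in KMR3 leaves, 10.26, 10.34 and 10.27 in KMR3 panicles, 9.5, 9.65 and 9.74 in IL50-7 leaves and 10.35, 10.40 and 10.43 in IL50-7 panicles. It was 1.36-fold higher in the panicle of KMR3 and 1.70-fold higher in that of IL50-7 (limma adjusted p = 0.0141 and 0.000554). The KMR3 call was lost without leaf 2 or panicle 2 of that line (log2 difference 0.36 and 0.42, limma adjusted p = 0.0547 and 0.051). CYCT1;2 read log2 8.79, 8.83 and 8.91 in KMR3 leaves, 7.93, 7.90 and 8.01 in KMR3 panicles, 8.56, 8.80 and 8.53 in IL50-7 leaves and 8.40, 8.21 and 8.15 in IL50-7 panicles. Its leaves were above its panicles in each line, by 1.86-fold in KMR3 (limma adjusted p = 0.000464) and with a log2 difference of -0.38 ± 0.15 in IL50-7 (0.0555). It passed in IL50-7 without IL50-7 panicle 1 (-0.45, 0.0457). In KMR3 its call was lost on the deposited scale (-0.38, 0.439) and with array medians set equal (-0.54, 0.135).

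By brightest probe sets, CDKG-1 (LOC4329899, chromosome 2) had the largest rise among the CDKs with leaf levels above background. It read log2 8.85, 8.85 and 8.99 in KMR3 leaves and 11.10, 10.73 and 10.65 in KMR3 panicles. The levels in IL50-7 were 10.02, 8.87 and 8.65 in leaves and 10.65, 10.73 and 10.79 in panicles. Leaf arrays stayed under panicle arrays in each line, but IL50-7 leaf 1 was over 1 log2 unit above the other leaves. The panicle was 3.8-fold higher in KMR3 and 2.92-fold higher in IL50-7 (limma adjusted p = 0.000257 and 0.00118). Without IL50-7 leaf 1 the IL50-7 log2 difference was 1.97 rather than 1.54. The other probe set of CDKG-1 was near background, at log2 2.86 to 4.89, and passed in neither line (log2 differences 0.40 ± 0.52 and 0.37 ± 0.52).

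CDKG-2 and CYCL1-1, a cyclin of the type that pairs with CDKG, passed in neither line by their brightest probe sets. CDKG-2 had log2 differences of -0.29 ± 0.16 and -0.21 ± 0.16 (limma adjusted p = 0.17 and 0.333), and it passed in KMR3 without KMR3 leaf 2 (-0.47, 0.025) and, with its probe sets averaged, in both lines (-1.52 and -0.97, 0.000803 and 0.0121). CYCL1-1 had the smallest spread of the family in leaves, a range of 0.11 log2 units, and its differences were -0.01 ± 0.12 and -0.17 ± 0.12. The 2 other probe sets of CDKG-2 were lower in the panicle of both lines. The one of the _x_at type was 3.77-fold lower in KMR3 and 2.67-fold lower in IL50-7 (limma adjusted p = 0.000849 and 0.00574). The last had mean log2 levels of 6.24 in leaves and 3.89 in panicles of KMR3 (0.00208) and was 2.46-fold lower in the panicle of IL50-7 (0.0463).

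CDKE-1 (LOC4349519, chromosome 10), the Mediator kinase, gave readings that disagreed most between probe sets. Its brightest probe set had log2 levels of 9.18 to 9.59 in leaves and 8.95 to 9.33 in panicles, and passed in neither line (log2 differences -0.27 ± 0.15 and -0.33 ± 0.15, limma adjusted p = 0.172 and 0.0976). It passed in IL50-7 without IL50-7 leaf 1 (-0.44, 0.0343). The second probe set assigned to the gene read log2 5.35, 5.19 and 3.91 in KMR3 leaves and 11.45, 11.21 and 11.14 in KMR3 panicles. In IL50-7 it read 8.71, 3.82 and 1.16 in leaves and 11.03, 11.12 and 11.57 in panicles. By that probe set the panicle was 87.5-fold higher in KMR3 (log2 difference 6.45 ± 1.36, limma adjusted p = 0.00242) and also higher in IL50-7 (0.002), where 2 of the 3 leaf arrays were under background and no fold is given. Its leaf levels spanned over 7 log2 units within IL50-7, with leaf 1 the highest, and without that array the limma adjusted p in IL50-7 was 3.63e-06. Whether both probe sets report the same transcript was not tested.

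CDKA-2 also had probe sets that differed. Its dimmest probe set was 2.82-fold lower in the KMR3 panicle and 3.88-fold lower in the IL50-7 panicle (limma adjusted p = 0.0228 and 0.00587), and its middle one passed in neither line (0.505 and 0.107).

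**Figure D4:**
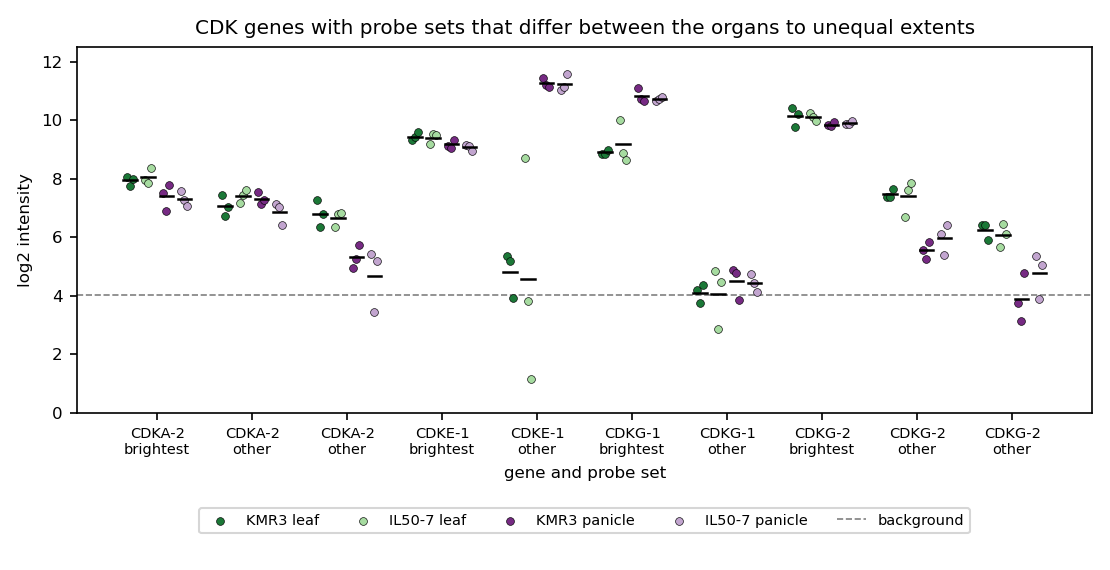
Log2 levels in every array for each probe set of CDKA-2, CDKE-1, CDKG-1 and CDKG-2, with points for arrays, bars for group means and a dashed line at background. The second probe set of CDKE-1 runs from 1.16 to 8.71 in leaves and 11.03 to 11.57 in panicles, while the brightest one of that gene stays between 8.95 and 9.59 in all 12 arrays.

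P-type cyclins resemble the yeast cyclins of phosphate signalling. CYCP4-1 (LOC4349405, chromosome 10) was higher in the panicle of both lines while being above background in all arrays. It read log2 5.18, 5.11 and 4.88 in KMR3 leaves and 8.18, 8.18 and 8.72 in KMR3 panicles. For IL50-7 they were 5.55, 4.78 and 5.35 in leaves and 8.65, 8.13 and 7.74 in panicles. The lowest panicle array was over 2 log2 units above the highest leaf array. The panicle was 9.91-fold higher in KMR3 and 7.72-fold higher in IL50-7 (log2 difference 3.31 ± 0.29 and 2.95 ± 0.29, limma adjusted p = 6.04e-06 and 1.31e-05).

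CYCP2-1 (LOC4336603, chromosome 4) was the most variable member in both organs. It read log2 4.35, 4.23 and 1.45 in KMR3 leaves, 5.75, 6.04 and 8.43 in KMR3 panicles, 6.40, 3.82 and 2.51 in IL50-7 leaves and 7.86, 6.12 and 4.14 in IL50-7 panicles. The range within an organ was 4.95 log2 units in leaves and 4.30 in panicles, against a median over the family of 0.995 and 0.571. The 2 highest panicle readings came from KMR3 panicle 3 and IL50-7 panicle 1, and the lowest from IL50-7 panicle 3. Those are the arrays with the highest sums of tapetum and anther genes (32270 and 29878) and with the lowest (9109), and the part of anther tissue in this gene's level was not tested. CYCP2-1 passed in KMR3 (mean log2 level 3.34 in leaves, under background, and 6.74 in panicles, limma adjusted p = 0.04) and not in IL50-7 (log2 difference 1.79 ± 1.23, 0.262). The call was lost without KMR3 leaf 3, panicle 2 or panicle 3 (0.154, 0.0564 and 0.142) and without IL50-7 leaf 2 or panicle 2 (0.0518 and 0.0515).

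CYCP3-1 read log2 6.54 to 6.90 in KMR3 leaves and 6.52 to 7.19 in KMR3 panicles, where the arrays overlapped (log2 difference 0.09 ± 0.29, limma adjusted p = 0.833). In IL50-7 it read 6.58, 5.80 and 5.99 in leaves and 7.06, 6.51 and 7.34 in panicles, 1.80-fold higher in the panicle (0.0339) although leaf 1 was above panicle 2. That call was lost without IL50-7 leaf 2, leaf 3, panicle 1 or panicle 3 (0.121, 0.0947, 0.0833 and 0.123).

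The comparison of IL50-7 with KMR3 asked whether cyclin and CDK genes differ between the lines. In the flag leaf 0 of 34 members passed (limma adjusted p), against 0.0729% of all probe sets, and 1 reached an unadjusted p under 0.05, against 4.85%. In the panicle 0 of 34 passed, against 0% of all probe sets, and 0 reached an unadjusted p under 0.05, against 3.29%. The groups of the 2 lines did not overlap for 0 members in the leaf (9.17% of all probe sets). In the panicle this held for 6 members, with 2, CYCT1;2 and CYCT1;4, higher in IL50-7 (5.15% of all probe sets) and 4, CDKC-1, CYCA3-2, CYCD5-3 and CYCH1-1, lower (4.07%).

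The member of lowest p in the leaf was CYCA3-2, the A-type cyclin whose levels are given above. Its IL50-7 leaf level was lower by a log2 difference of -0.75 ± 0.33 (unadjusted p = 0.0416, limma adjusted p = 1), with the lines overlapping at KMR3 leaf 3 and IL50-7 leaf 1. CYCP3-1 came next at -0.61 ± 0.29 (limma, unadjusted p = 0.0615), with KMR3 leaves at 6.75, 6.90 and 6.54. CYCB1-1 followed with 0.78 ± 0.40 (limma, unadjusted p = 0.074), where IL50-7 leaf 1 at 5.12 and leaf 2 at 4.44 were above all KMR3 leaves.

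In the panicle the 3 lowest p-values belonged to CYCT1;2, CDKC-1 and CYCL1-1, and none reached 0.05 before adjustment. CYCT1;2 was higher in IL50-7 in every array, by a log2 difference of 0.31 ± 0.15 (limma, unadjusted p = 0.0589, adjusted p = 1). CDKC-1 was lower in every IL50-7 array, by -0.34 ± 0.17 (limma, unadjusted p = 0.0676). CYCL1-1 read 9.86, 9.85 and 9.63 in KMR3 panicles and 9.61, 9.69 and 9.60 in IL50-7 panicles, which overlapped (-0.15 ± 0.12, limma, unadjusted p = 0.242).

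The width of the intervals shows how large a line difference the fit leaves room for, with 1 spread per gene taken over all 4 groups. For a given gene the width is therefore the same in leaf and panicle. The 95% interval of a line difference extended 0.27 log2 units either way for CYCL1-1 and 2.70 for CYCP2-1, with a median of 0.64. The whole interval lay within 1 log2 unit (a 2-fold difference) of 0 for 20 of 34 members in the leaf and 22 in the panicle. CYCB2-2, for instance, had an interval from -2.80 to 1.44 in the leaf, where it was under background. In the panicle its interval was -2.47 to 1.76. Its standard deviations were 1.63 and 2.07 in the leaves of KMR3 and IL50-7, and 0.23 and 0.34 in the panicles. Those of CDKB2-1 were 1.30 and 1.04 in leaves, and 0.17 and 0.19 in panicles. The panicle intervals of these genes thus include the scatter of dim leaf values. CYCB2-1 had -0.59 to 0.73 in the panicle, CYCB1-1 -0.88 to 0.87, CDKB2-1 -1.24 to 1.5 and CYCP4-1 -0.83 to 0.45. For CDKA-1 it was -0.52 to 0.69 in the leaf and -0.45 to 0.76 in the panicle.

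**Figure D5:**
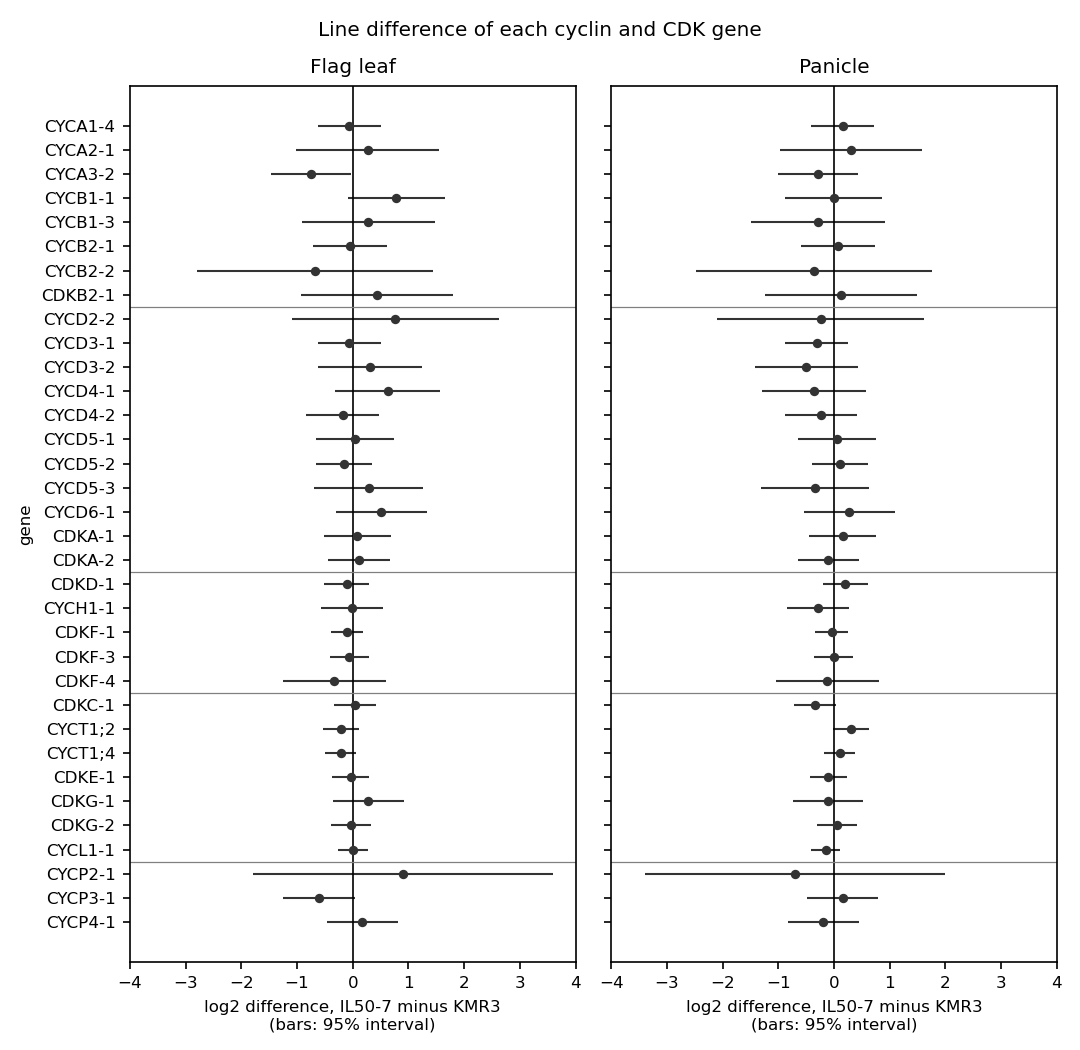
Log2 difference, IL50-7 minus KMR3, of each tested member in the flag leaf (left) and the panicle (right), with the 95% interval as bars. Apart from CYCA3-2 in the leaf every interval includes 0, and none of the differences passed after adjustment; the intervals of CYCP2-1, CYCB2-2 and CYCD2-2 are the widest.

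Whether the organ difference itself differed between the lines was tested with the line by organ interaction. Again 0 of 34 members passed (limma, 0.0291% of all probe sets) and 1 had an unadjusted p under 0.05 (3.91%). That one was CYCT1;2, which fell by 0.90 log2 units from leaf to panicle in KMR3 and had -0.38 in IL50-7 (difference 0.52 ± 0.21, unadjusted p = 0.0288, limma adjusted p = 1). CYCP3-1 followed with 0.76 ± 0.41 (limma, unadjusted p = 0.0914) and CYCT1;4 with 0.32 ± 0.18 (0.106). The sign of the CYCT1;4 interaction turned on the deposited scale. Members that passed in a single line are therefore not shown to respond differently in the other.

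Other regulators of the cell cycle, listed by name (CDK inhibitors, retinoblastoma-related proteins, origin recognition complex subunits and others), were compared with the family. RefSeq lists 21 of them, of which 17 have a probe set and all 17 were tested. In KMR3 8 were higher in the panicle and 2 lower, and in IL50-7 9 were higher and 3 lower, with median log2 differences of 0.87 and 1.03. Of all probe sets 22.5% were higher and 25% lower in KMR3, and 22.4% and 23.2% in IL50-7. RSS1, a rice protein that keeps meristem cells dividing under salt stress, read log2 4.11 to 5.23 in leaves and 8.35 to 9.01 in panicles. It was 16.6-fold higher in the KMR3 panicle and 18.4-fold higher in that of IL50-7 (limma adjusted p = 5.74e-06 and 4.11e-06). RBR1, a retinoblastoma-related protein and thus a target of D-type cyclin kinases, was under background in all 6 leaves and 5.57 to 6.43 in panicles. Like ORC1, it passed the filter on dim probe sets only through its panicle levels. The RBR1 level in the panicle was at least 4.16-fold higher in KMR3 and at least 4.03-fold higher in IL50-7 (limma adjusted p = 2.56e-05 and 0.000356), while RBR2 passed in neither line (0.404 and 0.624).

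CDK inhibitors of the KRP family went both ways. KRP5 was 13.9-fold higher in the KMR3 panicle and 8.97-fold higher in the IL50-7 panicle (limma adjusted p = 3.61e-06 and 1.25e-05). KRP4 fell from log2 9.55 to 10.11 in leaves to 7.48 to 8.02 in panicles, 4.70-fold in KMR3 and 5.03-fold in IL50-7 (4.9e-06 and 3.34e-06). KRP1 was lower as well, 1.76-fold and 1.83-fold (0.0303 and 0.0224), and KRP6 passed in neither line (0.188 and 0.129). Without IL50-7 leaf 1 the IL50-7 call of KRP1 was lost (log2 difference -0.80, limma adjusted p = 0.0589) and KRP6 passed there (1.58, 0.0171). EL2, a CDK inhibitor of rice, read log2 6.54 to 7.77 in 5 leaf arrays and 11.37 in IL50-7 leaf 1, as high as the panicles at 11.26 to 11.88. It was 18.5-fold higher in the KMR3 panicle and 8.18-fold higher in that of IL50-7 (0.00313 and 0.0195), and without that leaf array the IL50-7 log2 difference was 4.53 ± 0.26 (limma adjusted p = 6.26e-07) rather than 3.03 ± 0.92.

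ORC1, ORC4, MYB3R-2 and SMR1 were also higher in the panicle of both lines. ORC1 and ORC4 are subunits of the origin recognition complex, which marks where DNA replication starts, and MYB3R-2 is a transcription factor of the kind that drives mitotic genes. ORC2 was 1.80-fold lower in IL50-7 (limma adjusted p = 0.038) with a log2 difference of -0.44 in KMR3 (0.25), and ORC3 and ORC5 passed in neither line. CKS1, a small CDK-binding protein, was 2.14-fold higher in the IL50-7 panicle (0.00216) and had 0.45 ± 0.23 in KMR3 (0.122). CENH3, the histone of centromeres, had log2 differences of 0.59 and 0.60 and passed in neither line (0.0863 and 0.084). Between the lines 0 of these 17 passed in either organ (limma), against 0.0729% of all probe sets in the leaf and 0% in the panicle. In the leaf 1 had an unadjusted p under 0.05 (limma, 4.85% of all probe sets). It was RBR1, which was under background in both lines there. In the panicle 0 did (3.29% of all probe sets).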

How the data were processed

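The authors deposited 1 linear intensity per probe set and array (57381 probe sets, 12 arrays), and the submitters' processing notes name GCOS 1.2. How probe sets were summarised and scaled, and on which genome build, is not given in the sources used here. Per the labels' protocols, biotin-labelled cRNA was made from total RNA of field-grown plants. Deposited trimmed means ran from 124 to 295.

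Intensities were put on the log2 scale, quantile normalized, and raised to a floor at their 10th percentile (log2 0.26). After 187 control probe sets were dropped, probe sets with a mean over all 12 arrays above the 40th percentile (log2 3.06) were kept (34316). Among the members and other regulators, CYCB2-2, CYCD2-2, RBR1 and ORC1 had leaf means under log2 3.06 in both lines. They passed only through their panicle levels, so their panicle calls are not independent of the filter. The same holds for the markers MADS6, MADS7, MADS8, MADS13, MADS15, OSH1, OSH43 and DMC1. Group means of all 12 arrays were fitted in limma 3.58.1 (R 4.3.3) with a prior variance trend (8 residual and 3.22 prior degrees of freedom) and Benjamini-Hochberg adjustment. The limma fit was tested on simulated levels with known changes, for panicle against leaf in KMR3 and with equal spread in all groups. The normalization, the floor, the background rules and the line comparisons were not tested that way. Figures were drawn with matplotlib 3.10.9. Since nothing in the labels ties replicates to separate plants, p-values measure only the spread between these samples. A fold is given as "at least" where every array of the dimmer group lay under background, and only levels are given where its mean alone did. Medians by role with levels raised to background were added after seeing the data.

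Genes were named through a probe annotation and the RefSeq table (22436 probe sets with 1 gene). Members, lists and the rules were chosen with earlier results of these data known. Genes named by rule were the 10 members that rose and all that fell in both lines by mean change, and the 3 lowest p-values of each line comparison. The other members are described by role. A rule naming the members of highest level was not used, since levels of different probe sets are not comparable. Genes that share the names ZEP1, RSS1 and MADS2 with a listed gene were left out of the lists. The alternatives were other scalings, floors, filters, variance settings, a fold minimum, array weights, a replicate block, sets of arrays and each array left out.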

Additional observations from a re-analysis of the deposited data

How the results depend on the processing

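Counts of members called were 19 in KMR3 and 18 in IL50-7 for panicle against leaf. With 1 array left out they ran from 15 to 20 and from 13 to 21, those called higher in both lines from 9 to 13 (12 with all arrays), and those called lower in both from 2 to 3 (3 with all arrays). Against a fold minimum of 2 the counts were 9 and 7, with 6 higher and 0 lower in both lines. Array weights gave 6 lower in both. Of all probe sets, 17.4% in KMR3 and 16.4% in IL50-7 passed with that fold minimum, and 54.6% and 53.4% with array weights. In the main fit 47.5% and 45.6% did. The other alternatives kept the counts of members within 1.5 times. Line and interaction counts were 0 with each array left out and in every alternative run, where few or no probe sets of any kind were called. The highest shares of all probe sets were 0.245% in the leaf and 0.0466% for the interaction, both without IL50-7 leaf 1. In the panicle the highest was 0.373%, without KMR3 panicle 3 and IL50-7 panicle 2 together. Counts of 0 members are thus close to the general share. CDKB2-1, CYCA2-1, CYCB1-1, CYCB2-1, CYCB2-2 and CYCP4-1 passed in both lines under every alternative that tested them. Among the named genes, CDKC-1 in KMR3 turned to 0.136 on the deposited scale, and its call held in 7 of 26 alternatives. The value for CYCT1;4, line by organ interaction, turned to -0.02421 on that scale and to -0.01374 with array medians set equal. The cause was not tested. With the replicate number as a block, 18 members passed in each line (46.3% of all probe sets in KMR3 and 44.5% in IL50-7). There 12 members were higher and 2 lower in both, and 0 passed between lines. CDKC-1 in KMR3 lost its call there (limma adjusted p = 0.071). In deviations from group means, 4 of 18 same-numbered pairs of arrays correlated above 0.1 (r = -0.328 to 0.400). The highest r, 0.592, was that of a differently numbered pair, KMR3 panicle 3 and IL50-7 panicle 1. Whether arrays of the same number share a plot or a batch is not in the labels and was not tested. Averaging a gene's probe sets gave 21 and 19 calls and made CDKE-1 pass (log2 difference 3.09 and 3.17). Of all values tested in that run, 45.7% passed in KMR3 and 43.6% in IL50-7. Signal near background limits the 11 members with a leaf array under it.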

Other observations

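Spread within an organ differed between leaf and panicle. The median range of a member over the 6 leaf arrays was 0.995 log2 units and over the 6 panicle arrays 0.571. It passed 1 log2 unit for 17 of 34 members in leaves and 5 in panicles. Of the tested members, 11 had a leaf array under background and 1, CYCD3-2, a panicle array. The widest leaf ranges, of CYCP2-1 (4.95), CYCD2-2 (3.99) and CYCB2-2 (3.58), belonged to members with a leaf array under background. CYCD5-3 (1.97) and CYCD6-1 (1.59) also had wide leaf ranges, with every leaf array above background. The part of dim signal in the leaf spread was not tested, and the spread of all probe sets was not taken. The narrowest member in panicles was CYCT1;4, with a range of 0.17.

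IL50-7 leaf 1 stood above the other 5 leaf arrays by over 1 log2 unit for CDKG-1 and CYCP2-1, for the second probe set of CDKE-1 and for the CDK inhibitor EL2. Its sum of floral organ identity genes (609) and of shoot meristem genes (32.5) was within the range of the other leaves. IL50-7 panicle 3, the array with the lowest tapetum and anther sum, was the lowest of the 6 panicle arrays for 11 of 34 members and the highest for 9.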
